A study of Mus musculus with 10 samples.

Results

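Adult mouse cortical endothelial cells (ECs) cultured with MS-275, an inhibitor of class I histone deacetylases (HDACs), were set directly against the E13.5 libraries of the same series, with the untreated adult cultures beside them. The genes described are those with a normalised count of at least 10 in at least 2 of the 5 MS-275 and E13.5 libraries. This took 14895 of the 21612 named genes of the table, and 11938 of these reached 10 in all 5 libraries. A further 170 genes had at least 10 in at least 2 adult control libraries but fell outside the rule. The comparison asked which programmes remained apart from E13.5 after HDAC inhibition and which genes lay at the E13.5 level.

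The 2 MS-275 libraries came from wild-type (WT) adult cultures given MS-275 at 10 µM, and 2 further libraries came from WT adult cultures given Wnt3a, labelled 200 nM. For Wnt3a the study's methods give 200 ng/ml instead. The 3 adult control libraries came from WT adult cultures and the 3 E13.5 libraries from WT embryos at E13.5, both labelled as control. All 10 libraries are labelled as primary ECs of the cortex. By the study's methods, cortex freed of its outer membranes was pooled, the ECs were grown on collagen in a commercial EC medium, and purity was judged by staining for CD31 and isolectin B4. The libraries therefore describe expanded cultures of pooled tissue. The study reports high purity of these cultures, with little or no neuronal, astrocyte and pericyte expression. Its discussion allows that transcripts of other cell types may be present. The p-values below measure the spread between these libraries only.

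Class I HDACs take acetyl groups off histone tails and work inside corepressor complexes such as Sin3, NuRD, CoREST and NCoR, which keep genes silent. MS-275, also called entinostat, blocks chiefly HDAC1, HDAC2 and HDAC3. Brain endothelium acquires its barrier in the embryo, while neural progenitors supply Wnt ligands that act through β-catenin. The barrier rests on tight junctions, selective transporters and little vesicle traffic.

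Sequencing depth was alike in the groups compared, with 31810932 and 24106578 reads on genes in the MS-275 libraries and between 26035690 and 31750178 in the E13.5 libraries. The MS-275 libraries correlated with each other at r = 0.972 across genes on the log2 scale, and with the E13.5 libraries at 0.87 to 0.877. E13.5 library 1 stood apart from the other E13.5 libraries for mural, fibroblast and DNA replication genes: Pdgfra, a receptor of fibroblasts and oligodendrocyte precursors, had 2733 normalised counts there against 206 and 190 in libraries 2 and 3. Adult control library 3 correlated at 0.993 with Wnt3a library 2 but at only 0.978 and 0.976 with adult control libraries 1 and 2.

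The E13.5 libraries went against their endothelial label. Over 27 endothelial identity genes the summed normalised count was 63624 and 45251 in the MS-275 libraries, 392360 to 507990 in the adult control libraries and 7028 to 7723 in the E13.5 libraries. Pecam1, the gene of CD31, had 4762 and 2551 normalised counts in MS-275 cultures and 58849 to 81545 in adult control cultures, against 45.3, 62.4 and 70.6 in E13.5 libraries. Many neural, glial, mural and fibroblast markers were high in the E13.5 libraries: the summed count of 16 astrocyte and radial glia genes was 61880 and 50410 in MS-275 cultures, 112070 to 155750 in adult control cultures and 181580 to 188870 in E13.5 libraries. Most of the adult sums came from Vim, a filament gene that ECs also use. The neuron and progenitor sums of E13.5 libraries (33156 to 45562) and adult control cultures (14827 to 33501) overlapped, and those of MS-275 cultures were 15113 and 11550. The median log2 difference of these genes, adult control minus E13.5, was -6.82. The pericyte and smooth muscle sums and the fibroblast sums were highest in E13.5 libraries, without overlap. Among single markers, Dcn had only 11.5 to 30.2 in E13.5 libraries, and Myh11 there (63 to 141) overlapped MS-275 cultures (34.1 and 211). Of 27 defining markers of these cell types, 3 (Dcx, Sox2 and Kcnj8) had no read in MS-275 cultures and 9 had none in adult control cultures, whereas only Kcnj8 had none in E13.5 libraries. In bulk RNA, fewer cells of a type and less RNA per cell cannot be told apart. The difference in stage and the difference in cell makeup cannot be told apart either, so each gene group below is a distance from these E13.5 libraries.

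Differences were taken as MS-275 minus E13.5 on log2(normalised count + 1) and were called at an adjusted p under 0.05 with an absolute log2 difference above 0.2. Of the 14895 genes, 7936 were called (53.3%), with 3191 higher (21.4%) and 4745 lower (31.9%) in MS-275 cultures. The difference was larger than 2-fold for 6429 called genes, 4-fold for 3840, and 16-fold for 324 higher and 1448 lower genes. A total of 455 genes had no read in MS-275 cultures and 65 had none in E13.5 libraries. The median over all genes was -0.18, and it depended on the scaling: quantile normalisation gave a median of 0.18 and turned the split to 4760 higher and 3719 lower, while equal totals gave a median of -0.28 with 2845 higher and 5022 lower. At the other end, 2717 genes (18.2%) had a 95% interval of the difference that lay wholly within 2-fold. Without E13.5 library 1, 7210 genes were called and 2252 had an interval within 2-fold.

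Of 42 gene groups with at least 5 members, 17 had the larger part of their members called in 1 direction, or 13 without MS-275 library 2 and 19 without E13.5 library 1. Ordered by their median, the groups farthest below E13.5 were those of astrocytes and radial glia (-7.88), pericytes and smooth muscle (-5.03), fibroblasts and meninges (-4.52), neurons and progenitors (-3.96), the oligodendrocyte lineage (-3.66), microglia and macrophages (-3.47), secreted Wnt inhibitors (-3.33) and Wnt ligands (-3.31). Imprinted genes (-2.92), Wnt targets (-2.75), epithelium and choroid plexus (-2.36) and DNA replication genes (-2.34) came next. Genes at or near 0 in 1 kind of library could meet the rule on counts only through the other kind, which bears on the neural, glial, mural, fibroblast and Hox groups above all, so their counts describe the members that met the rule. Above E13.5 stood the endothelial identity genes, the Hox clusters and the interferon response, and for MHC genes 8 of 16 were higher and none lower. The shares of all genes to set beside each group below were 21.4% higher and 31.9% lower than E13.5. Against adult control they were 22.3% higher and 17.2% lower. Over all genes, 7339 (49.3%) had a mean within 2-fold of E13.5. Such a mean was found for 24 of 28 ribosomal protein genes, 27 of 30 oxidative phosphorylation genes, 19 of 23 cholesterol synthesis genes and 8 of 12 genes of Polycomb repressive complex 2 (PRC2).

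**Figure D1:**
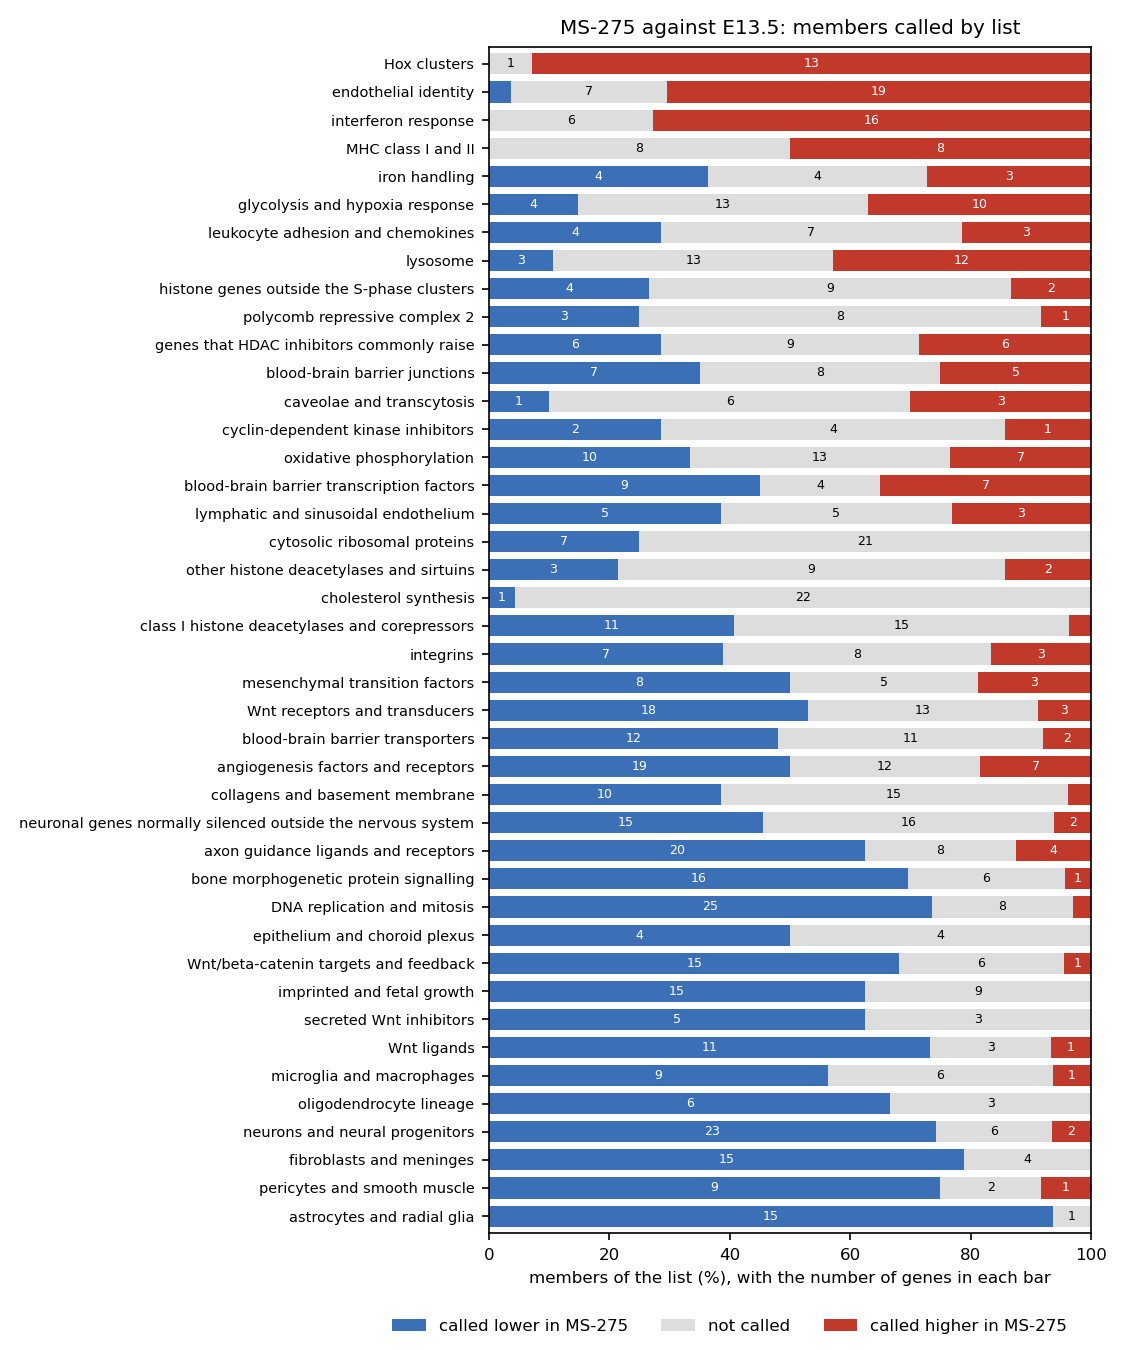
Share of each gene group called lower, not called or called higher in MS-275 cultures (2 libraries) than in E13.5 libraries (3 libraries); the x axis is the percentage of members, the numbers in the bars are genes, and each bar is 1 group. Astrocyte and radial glia genes were lower in 15 of 16 and Hox genes higher in 13 of 14 of the members that met the rule on counts.

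Endothelial identity genes lay well above E13.5 but far below the adult control level. Of 27, 19 were higher and 1 was lower than in E13.5 libraries, with a median log2 difference of 2.81, and the adult control median was 8.18. Against adult control cultures, none of the 27 was higher and 24 were lower, with a median of -4.15; over all genes 39.6% were called in this comparison, 22.3% higher and 17.2% lower. That total of 5891 called genes fell to 3615 without MS-275 library 2 and was 6840 without adult control library 3. The summed counts of the E13.5 libraries given above stand beside these values, and the part of cell makeup in them was not tested.

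Cldn5, the chief claudin of brain tight junctions, had 2560 and 802 normalised counts in MS-275 cultures, 31200, 33861 and 8340 in adult control cultures and 3.18, 0 and 0 in E13.5 libraries. The 3 groups did not overlap. The log2 difference from E13.5 was 9.80 ± 0.82 (SE, adjusted p = 2.3e-05) and that from adult control was -3.85, although the call against adult control was lost without MS-275 library 2 (adjusted p = 0.071). Cdh5, which encodes VE-cadherin of adherens junctions, had 10931 and 2808 in MS-275 cultures, 75414 to 90276 in adult control cultures and 57.2 to 108 in E13.5 libraries, again without overlap. Pecam1 differed by 5.87 ± 0.29 from E13.5 (adjusted p = 1.5e-06) and by -4.35 from adult control. Erg, an ETS factor that keeps endothelial genes on, had 3800 and 1076 in MS-275 cultures, 12749 to 14154 in adult control cultures and 0, 6.94 and 1.91 in E13.5 libraries, a difference from E13.5 of 9.47 ± 0.78 (adjusted p = 2.1e-05). Sox17, a SOX factor of arterial and brain endothelium, fell to 51.2 and 101 in MS-275 cultures, against 2343 to 2782 in adult control cultures, and its E13.5 values were 1.59 to 1.91.

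A few endothelial genes came down to or under the E13.5 level. S1pr1, the sphingosine-1-phosphate receptor of vessel stability, had 1379 and 443 normalised counts in MS-275 cultures, 16027 to 30998 in adult control cultures and 1388, 2515 and 2531 in E13.5 libraries. It was the 1 endothelial identity gene called lower than in E13.5 (log2 difference -1.40 ± 0.51, adjusted p = 0.045), with MS-275 library 1 just under the lowest E13.5 library. The call was lost with edgeR (adjusted p = 0.077), in a fit of the 5 libraries alone (0.065), without MS-275 library 2 (0.39) and without E13.5 library 2 or 3 (0.12 each). Adgrl4, an adhesion receptor of endothelium, had 317 and 354 in MS-275 cultures and 216 to 462 in E13.5 libraries, and the 95% interval of its difference ran from -1.30 to 1.68. Ets1, an ETS factor shared with other cell types, had 1536 and 2108 in MS-275 cultures, 4802 to 5086 in adult control cultures and 1696 to 1825 in E13.5 libraries. Its interval, from -0.52 to 0.58, lay within 2-fold. Vwf, the von Willebrand factor, was not called against adult control (log2 difference 2.45, interval -0.05 to 4.95), with 1743 and 934 in MS-275 cultures, 116, 78.3 and 1370 in adult control cultures and 4.77 to 15.6 in E13.5 libraries; adult control library 3 lay between the MS-275 libraries.

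**Figure D2:**
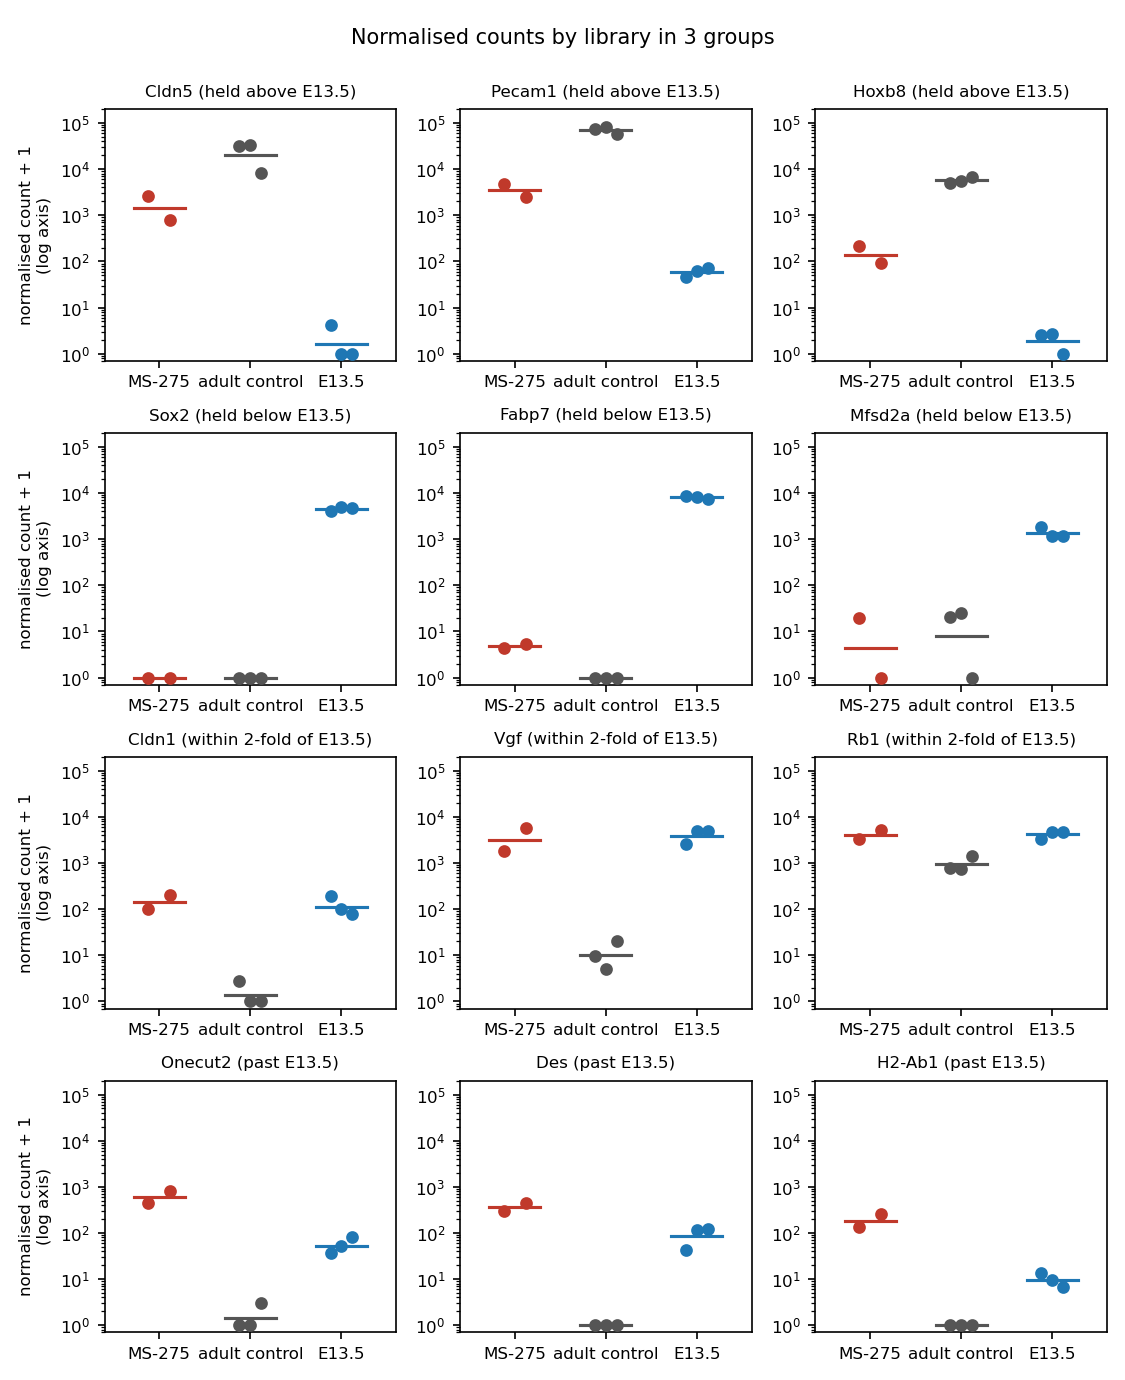
Normalised count + 1 on a log axis for 12 genes, with 1 point per library and a line at the mean of the logs for MS-275 (2), adult control (3) and E13.5 (3). Cldn5 and Hoxb8 lie between the other groups in MS-275 cultures, Sox2 and Fabp7 stay at or near 0 in all adult cultures, Rb1 overlaps E13.5 at 3326 and 5062 against 3348 to 4717, and Onecut2 lies above E13.5 at 438 and 818.

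Among 20 tight junction genes, 5 were higher and 7 lower than in E13.5 libraries and 5 had a mean within 2-fold; 4 were lower without MS-275 library 2 or without E13.5 library 2 or 3. Among all genes 21.4% were higher, 31.9% lower and 49.3% within 2-fold. The junction shares called higher and lower were near these, and the share within 2-fold was smaller. Cldn1, a claudin that seals many barriers, was 1 of the genes that reached E13.5: it had 97.2 and 199 normalised counts in MS-275 cultures, 1.73, 0 and 0 in adult control cultures and 188, 98.8 and 76.3 in E13.5 libraries. MS-275 and E13.5 overlapped, and the difference was 0.31 with an interval from -1.81 to 2.42, too wide to place it within 2-fold. Cgn, which encodes the junction plaque protein cingulin, went above E13.5 with 1127 and 966 in MS-275 cultures, 3.94 to 20.3 in adult control cultures and 30.2 to 74.4 in E13.5 libraries (log2 difference 4.36 ± 0.91, adjusted p = 0.0036). Cldn12 stayed where adult control cultures had it, with 780 and 785 in MS-275 cultures, 802 to 1011 in adult control cultures and 4924 to 6248 in E13.5 libraries (log2 difference -2.86 ± 0.17). Cldn11, a claudin of myelin and of the meninges, had no read in any adult culture, MS-275 or control, and 63 to 114 normalised counts in E13.5 libraries, at least 61.7-fold higher there than in MS-275 cultures.

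Of 25 transporter genes, 2 were higher and 12 lower than in E13.5 libraries, and 1 was higher without MS-275 library 1 or 2 or without E13.5 library 2 or 3. Of all genes 21.4% were higher and 31.9% lower. Mfsd2a, the lipid transporter that holds down transcytosis, had 18.8 and 0 normalised counts in MS-275 cultures, 19.1, 24.4 and 0 in adult control cultures and 1149 to 1857 in E13.5 libraries. MS-275 and adult control overlapped, and the log2 difference from E13.5 was -8.25 ± 1.77 (adjusted p = 0.0042, or 0.051 without MS-275 library 2). Slc38a3, a glutamine transporter that neural and liver cells also use, was called higher than in adult control by 5.70 and had a log2 difference of -3.70 from E13.5, with 54.6 and 101 in MS-275 cultures, 0 to 2.03 in adult control cultures and 896 to 1061 in E13.5 libraries. Slco1c1, a thyroid hormone carrier of brain ECs and glia, had at most 2.19 in MS-275 cultures, against at least 237 in E13.5 libraries. The transporters above E13.5 were Slc2a1, the glucose transporter GLUT1, and Abcg1, a cholesterol exporter. Slc2a1 had 8411 and 6487 in MS-275 cultures, 1788 to 3476 in adult control cultures and 2465 to 3271 in E13.5 libraries, a difference from E13.5 of 1.35 ± 0.46 (adjusted p = 0.036). That call was lost without any 1 of the 5 libraries, with an adjusted p from 0.064 to 0.17. Abcg1 had 1216 and 806 in MS-275 cultures, 1604 to 2722 in adult control cultures and 26.7 to 36.6 in E13.5 libraries.

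Transcription factors tied to the barrier split by direction, with 7 of 20 higher and 9 lower, where 21.4% and 31.9% of all genes were. Zic1, a zinc finger factor of neural and meningeal tissue, and Foxf2, a pericyte forkhead factor, had no read in either adult group, and E13.5 libraries were at least 450-fold and 27.9-fold higher than MS-275 cultures. Foxf1, a forkhead factor of vascular mesoderm, lay between the other groups at 629 and 393 normalised counts in MS-275 cultures, 1402 to 1709 in adult control cultures and 17.2 to 26 in E13.5 libraries. Among caveolar genes, Cav1, the coat protein of caveolae, had 6249 and 1582 in MS-275 cultures, 12649 to 34123 in adult control cultures and 6192 to 10576 in E13.5 libraries, with an interval of the difference from E13.5 of -2.63 to 0.11. Plvap, a diaphragm protein of leaky vessels, remained above E13.5 with 745 and 1370 in MS-275 cultures, 5594 to 6506 in adult control cultures and 79.2 to 127 in E13.5 libraries.

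Neural and glial genes were mostly lower than in E13.5 libraries. Of 32 neuron and progenitor genes 31 met the rule on counts, of which 23 were lower and 2 higher than in E13.5 libraries, with a median of -3.96, or -3.85 with genes at 0 reads set to the level of 3 reads over the group. Of 18 astrocyte and radial glia genes 16 met the rule, of which 15 were lower, and their median was the farthest from E13.5 of the 42 groups at -7.88. Sox2, the factor of neural stem cells, had no read in any adult culture and 4052 to 4878 normalised counts in E13.5 libraries, at least 3158-fold higher than in MS-275 cultures. Sox11, a factor of young neurons, likewise had no read in MS-275 or adult control cultures and was at least 3555-fold higher in E13.5 libraries than in MS-275 cultures. Fabp7, the fatty acid carrier of radial glia, had 3.41 and 4.37 in MS-275 cultures, 0 in each adult control culture and 7436 to 8767 in E13.5 libraries (log2 difference -10.71 ± 0.34, adjusted p = 2.5e-07).

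Some neural genes were raised over adult control, by widely different amounts relative to E13.5. Ncan, a proteoglycan of brain matrix, had 10.2 and 23 normalised counts in MS-275 cultures, at least 17.4-fold above adult control cultures at 0, against 23307 to 31809 in E13.5 libraries. Stmn2, a microtubule regulator of growing axons, had 10.2 and 173 in MS-275 cultures, 0 to 2.03 in adult control cultures and 1685 to 2439 in E13.5 libraries. Slc1a2, the glutamate transporter of astrocytes, had 49.5 and 41.5 in MS-275 cultures, 0 to 1.97 in adult control cultures and 616 to 676 in E13.5 libraries. Tubb3, the tubulin of neurons, came nearer, with 568 and 334 in MS-275 cultures, 0 to 2.03 in adult control cultures and 567 to 766 in E13.5 libraries. It was raised over adult control by 7.75 on the log2 scale (adjusted p = 0.0024) and overlapped E13.5, with an interval from -3.68 to 2.44. Nefl, the light neurofilament chain, lay above E13.5 with 7155 and 6534 in MS-275 cultures, 9861 to 21169 in adult control cultures and 404 to 512 in E13.5 libraries.

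Mural and fibroblast genes were also mostly lower in MS-275 cultures than in E13.5 libraries. Of 16 pericyte and smooth muscle genes 12 met the rule, 9 lower and 1 higher, and of 20 fibroblast genes 19 met it, 15 lower and none higher. Against adult control, 4 of the 12 rose and 1 fell, and 7 of the 19 rose and none fell. The fibroblast sum was 32426 and 32311 in MS-275 cultures, 4598 to 14847 in adult control cultures and 39153 to 82896 in E13.5 libraries. Most of the MS-275 sum came from Fn1. Acta2, smooth muscle actin, had 11.9 and 10.9 normalised counts in MS-275 cultures, 7.89 to 15.6 in adult control cultures and 19743 to 32866 in E13.5 libraries (log2 difference -10.90 ± 0.65, adjusted p = 3.6e-06). Col1a1, the fibrillar collagen chain, had 66.5 and 80.9 in MS-275 cultures, 9.86 to 20.8 in adult control cultures and 5522, 2593 and 2677 in E13.5 libraries, with library 1 the highest. Notch3, a receptor of mural cells, was raised over adult control by 5.92 but had a log2 difference of -3.63 from E13.5 (adjusted p = 0.019, or 0.073 and 0.093 without MS-275 library 1 and 2): it had 161 and 142 in MS-275 cultures, 0, 0 and 14.8 in adult control cultures and 1764 to 2015 in E13.5 libraries. Des, the muscle filament desmin, passed E13.5 with 299 and 436 in MS-275 cultures, 0 in adult control cultures and 41.3, 118 and 119 in E13.5 libraries. That was at least 386-fold over adult control, and 2.10 ± 0.51 over E13.5 (adjusted p = 0.0081, or 0.052 without MS-275 library 2). Fn1, fibronectin, reached E13.5 with 27129 and 28974 in MS-275 cultures, 3723 to 12706 in adult control cultures and 20475 to 38844 in E13.5 libraries, with an interval from -1.20 to 1.34.

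Wnt pathway genes differed by role. Among 15 ligands 11 were lower and 1 higher, the higher call being lost without either MS-275 library and without E13.5 library 1 or 3. Their summed normalised count was 479 and 280 in MS-275 cultures, 510 to 571 in adult control cultures and 4230 to 4325 in E13.5 libraries. Wnt7a, a ligand of neural progenitors, had 87 and 17.5 in MS-275 cultures, 0 in adult control cultures and 193, 538 and 630 in E13.5 libraries. It rose at least 54.9-fold over adult control (adjusted p = 0.012, or 0.086 without MS-275 library 1), and its difference from E13.5 was -3.32 ± 1.30, which was not called (adjusted p = 0.057, interval -6.27 to -0.37). Wnt7b, its near relative, had 22.2 and 19.7 in MS-275 cultures, 1.97 to 12.2 in adult control cultures and 938 to 1749 in E13.5 libraries, a log2 difference of -6.00 ± 0.67 (adjusted p = 0.00011). Ndp, the ligand norrin, had no read in either adult group, and E13.5 libraries were at least 194-fold above MS-275 cultures. Of the 8 secreted inhibitors 5 were lower and none higher. Wif1, which binds Wnt proteins, reached E13.5 with 52.9 and 76.5 in MS-275 cultures, 0 in adult control cultures and 61.6 to 127 in E13.5 libraries, with an interval from -1.68 to 1.03.

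Of 34 receptors and transducers, 18 were lower and 3 higher than in E13.5 libraries, 13 had a mean within 2-fold and 6 an interval within 2-fold, against 49.3% and 18.2% of all genes; 1 was called higher without MS-275 library 2 or without E13.5 library 2 or 3. Ctnnb1, β-catenin itself, had 31601 and 28443 normalised counts in MS-275 cultures, 34702 to 69209 in adult control cultures and 19014 to 19842 in E13.5 libraries; its difference from E13.5 was not called (interval -0.08 to 1.33). Fzd4, the norrin receptor, had 1476 and 2235 in MS-275 cultures, 4946 to 8029 in adult control cultures and 602 to 676 in E13.5 libraries, 1.53 ± 0.48 above E13.5 (adjusted p = 0.024). Its call was lost without MS-275 library 2 (adjusted p = 0.16) and without any 1 of the E13.5 libraries (0.052 to 0.066). Lrp6, a co-receptor, and Reck, which presents Wnt7 ligands, rose over adult control by 1.23 and 1.98 and were 1.35 and 1.38 above E13.5, the call of Reck being lost without MS-275 library 1 (adjusted p = 0.052) or 2 (0.11) and without E13.5 library 2 (0.054) or 3 (0.061). Fzd3 and Ror2, receptors of neural and mesenchymal cells, had no read in any MS-275 or adult control culture, and E13.5 libraries were at least 2988-fold and 256-fold higher than MS-275 cultures.

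Wnt target genes rose over adult control in 13 of 22 cases and fell in 2, yet 15 were lower than in E13.5 libraries and 1 was higher. Without MS-275 library 2, 9 were lower. Against adult control 22.3% of all genes rose and 17.2% fell, and 31.9% were lower and 21.4% higher than in E13.5 libraries. Targets at or near 0 in adult control cultures could hardly fall. The median of the Wnt targets relative to E13.5 lay at -2.75 for MS-275 and -5.56 for adult control cultures. Axin2, a feedback inhibitor that nearly all Wnt-responsive cells induce, had 11.9 and 83.1 normalised counts in MS-275 cultures, 0, 0 and 1.97 in adult control cultures and 249 to 404 in E13.5 libraries. It was 4.52 above adult control, with a log2 difference of -3.16 ± 0.80 from E13.5 (adjusted p = 0.0097, or 0.07 without MS-275 library 1), and none of the groups overlapped. Lef1, a β-catenin partner, had 5.12 and 15.3 in MS-275 cultures, 0 to 2.03 in adult control cultures and 98.3 to 215 in E13.5 libraries. Tcf7, another partner, came closer with 312 and 271 in MS-275 cultures, 6.94 to 17.7 in adult control cultures and 745 to 1146 in E13.5 libraries (log2 difference -1.75, adjusted p = 0.011, or 0.063 without MS-275 library 2). Ccnd1, cyclin D1, moved away instead: it fell to 11499 and 1878 in MS-275 cultures, against 37527 to 43094 in adult control cultures, and E13.5 libraries had 53149 to 68505. Rnf43, a membrane ligase that removes Wnt receptors, was the 1 target above E13.5, with 18.8 and 36.1 in MS-275 cultures, 0 in adult control cultures and 3.18 to 10.4 in E13.5 libraries. Its call (adjusted p = 0.048) was lost with edgeR (0.11) and without any 1 of the 5 libraries (0.055 to 0.24). Nkd1, an inhibitor of Dishevelled, had 1.71 and 0 in MS-275 cultures and 176 to 249 in E13.5 libraries.

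DNA replication and mitosis genes were lower in MS-275 cultures than in both other groups. Of 34, 25 were lower and 1 higher than in E13.5 libraries, with a median of -2.34 against a median of -0.09 for adult control. Against adult control, 26 were lower and 1 higher. The summed normalised count was 16647 and 20937 in MS-275 cultures, 46352, 31284 and 65586 in adult control cultures and 69619, 35618 and 34061 in E13.5 libraries, so E13.5 library 1 and adult control library 3 stood above the others of their groups. Without E13.5 library 1, 19 genes were lower and 2 higher, with a median of -2.03. Plk1, a mitotic kinase, had 46.9 and 28.4 normalised counts in MS-275 cultures, 405 to 914 in adult control cultures and 466 to 1334 in E13.5 libraries (log2 difference from E13.5 -4.17 ± 0.68, adjusted p = 0.001). Ccnb1, the mitotic cyclin B1, had 90.4 and 59 in MS-275 cultures, 600 to 1384 in adult control cultures and 880 to 2526 in E13.5 libraries. Mcm5, of the replicative helicase, had 52.9 and 83.1 in MS-275 cultures, 1049 to 1832 in adult control cultures and 525 to 1484 in E13.5 libraries. Pcna, the sliding clamp, was the 1 gene higher, with 4279 and 9560 in MS-275 cultures, 2581 to 3049 in adult control cultures and 1944 to 3540 in E13.5 libraries (adjusted p = 0.011, or 0.095 without MS-275 library 2). Among inhibitors of the cell cycle, Cdkn1a, which encodes p21, had 8051 and 8563 in MS-275 cultures, 9654 to 10686 in adult control cultures and 14902 to 15903 in E13.5 libraries, 0.91 lower than E13.5 (adjusted p = 0.0058). Cdkn1c, which encodes p57, had a mean within 2-fold of E13.5, at 779 and 738 in MS-275 cultures, 21.7 to 207 in adult control cultures and 663 to 867 in E13.5 libraries. None of the 7 inhibitors had an interval within 2-fold. The rise of Cdkn1c over adult control was 3.07 without MS-275 library 1 and 3.15 without library 2, and its call rested on both libraries. Rb1, which holds back entry into S phase, had 3326 and 5062 in MS-275 cultures, 750 to 1451 in adult control cultures and 3348 to 4717 in E13.5 libraries, with an interval from -0.79 to 0.73.

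The targets of the drug and their partners were mostly within 2-fold of E13.5. Of 27 class I HDAC and corepressor genes, 18 had a mean within 2-fold of E13.5 and 13 an interval within 2-fold, against 49.3% and 18.2% of all genes. In all, 11 were lower and 1 was higher, or 3 higher without MS-275 library 1. Of all genes 31.9% were lower and 21.4% higher. Hdac1 had 2424 and 2771 normalised counts in MS-275 cultures, 1460 to 1629 in adult control cultures and 2501, 1562 and 1532 in E13.5 libraries. Hdac2 had 4567 and 7470 in MS-275 cultures, 2930 to 6013 in adult control cultures and 4731 to 5088 in E13.5 libraries, overlapping E13.5 with an interval from -0.53 to 1.05. Hdac3 lay under E13.5 in both libraries, at 1112 and 1063 in MS-275 cultures, 781 to 936 in adult control cultures and 1333 to 1803 in E13.5 libraries, with an interval from -0.89 to -0.07. Its adjusted p was just under the threshold, and the call was lost with edgeR (0.057) and without any 1 of the 5 libraries. Hdac8 had 320 and 196 in MS-275 cultures, 422 to 466 in adult control cultures and 184 to 205 in E13.5 libraries. Kdm1a, the demethylase of CoREST, had 796 and 843 in MS-275 cultures, 1495 to 1524 in adult control cultures and 3118 to 3430 in E13.5 libraries (log2 difference -1.99 ± 0.14). Chd3, a NuRD helicase, had 783 and 504 in MS-275 cultures, 4940 to 7983 in adult control cultures and 2343 to 2520 in E13.5 libraries, so MS-275 lay below both.

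Of 12 PRC2 genes, 3 were lower and 1 higher, against 31.9% and 21.4% of all genes. Ezh2, the methyltransferase of dividing cells, had 712 and 995 normalised counts in MS-275 cultures, 480 to 1083 in adult control cultures and 1868 to 2583 in E13.5 libraries (log2 difference -1.34 ± 0.37, adjusted p = 0.015, or 0.1 without MS-275 library 1 and 0.051 without E13.5 library 1). Ezh1, its counterpart in resting cells, had 1215 and 783 in MS-275 cultures, 1320 to 2114 in adult control cultures and 416 to 465 in E13.5 libraries, 1.12 above E13.5 (adjusted p = 0.0062, or 0.051 without MS-275 library 1). The core subunits Eed and Suz12 were not called, with intervals from -0.53 to 0.43 and from -0.11 to 1.25.

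Genes that HDAC inhibitors commonly raise had a median of 0.12 from E13.5, or -0.30 without MS-275 library 1, with 6 of 21 higher and 6 lower, and the adult control median was -1.40. Among all genes 21.4% were higher and 31.9% lower than in E13.5 libraries. Against adult control, 10 rose and 1 fell, where 22.3% and 17.2% of all genes did. The list holds Cldn1, which the study reports as raised by MS-275, and was chosen with earlier results of these data known. Its rises over adult control are therefore a description. Sat1, an enzyme of polyamine breakdown, had 45068 and 38418 normalised counts in MS-275 cultures, 5125 to 8204 in adult control cultures and 1794 to 2397 in E13.5 libraries, so it moved farther from E13.5 (log2 difference 4.37 ± 0.23, adjusted p = 1.8e-06). Gadd45b, a stress-response gene, had a mean within 2-fold of E13.5 instead, with 813 and 1000 in MS-275 cultures, 57.3 to 65.1 in adult control cultures and 488 to 799 in E13.5 libraries. Both MS-275 libraries lay above all E13.5 libraries, and no gene of this group had an interval within 2-fold. The metallothionein Mt2 rose by 5.49 over adult control with a log2 difference of -6.37 from E13.5, having 102 and 78.7 in MS-275 cultures, 0 to 2.03 in adult control cultures and 6504 to 9667 in E13.5 libraries.

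Hox genes, which give cells their position along the body axis and are silent in forebrain, had the highest median of the 42 groups at 5.88. Of 39 Hox genes 14 met the rule on counts and 25 did not, and 13 of the 14 were called higher than in E13.5 libraries. The summed normalised count was 2590 and 1949 in MS-275 cultures, 15122 to 22922 in adult control cultures and 16.2 to 27.7 in E13.5 libraries. Since genes at 0 in E13.5 libraries could enter only through the MS-275 libraries, the 13 of 14 is a description of the genes that met the rule. Hoxb8 had 211 and 90.7 in MS-275 cultures, 4955 to 6685 in adult control cultures and 0 to 1.73 in E13.5 libraries (log2 difference from E13.5 6.18 ± 0.65, adjusted p = 8e-05), and it fell by 5.35 relative to adult control. Hoxb7 and Hoxd10 had no read in E13.5 libraries and were at least 198-fold and 171-fold higher in MS-275 cultures. Hoxb9 rose by 2.96 over adult control, a call lost without MS-275 library 2 (adjusted p = 0.13), with 131 and 338 in MS-275 cultures, 20.8 to 35.5 in adult control cultures and 0 to 3.18 in E13.5 libraries. Hoxb13, the most posterior gene of its cluster, had 25.6 and 10.9 in MS-275 cultures and no read in the adult control or E13.5 libraries.

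Imprinted and fetal growth genes, which are mostly shut down after birth, were lower in 15 of 24 cases and higher in none. Of all genes 31.9% were lower and 21.4% higher. Ndn and Dlk1 had no read in any MS-275 or adult control culture, and E13.5 libraries were at least 1145-fold and 491-fold higher than MS-275 cultures. Mest, a hydrolase of mesoderm, fell by 3.91 relative to adult control (adjusted p = 0.053 without MS-275 library 1), with 809 and 2406 normalised counts in MS-275 cultures, 15952 to 28959 in adult control cultures and 30359 to 31578 in E13.5 libraries. Igf2, the fetal growth factor, had 254 and 1365 in MS-275 cultures, 128, 132 and 882 in adult control cultures and 14660, 2743 and 2599 in E13.5 libraries; E13.5 library 1 was the highest and the difference was not called (adjusted p = 0.23). Igf2bp1, an RNA-binding protein of embryos, rose by 5.03 over adult control with a log2 difference of -5.07 from E13.5. Without MS-275 library 1 or 2 the rise was not called (adjusted p = 0.086 and 0.058), nor was the gap to E13.5 without MS-275 library 2 (0.078). Plagl1, a zinc finger factor of the imprinted network, reached E13.5 with 2683 and 6731 in MS-275 cultures, 52.9 to 524 in adult control cultures and 4197 to 6226 in E13.5 libraries, with an interval from -2.29 to 1.65. Peg10, a retrotransposon-derived gene, overlapped E13.5 at 6678 and 13280 in MS-275 cultures, 1391 to 2571 in adult control cultures and 6089 to 11834 in E13.5 libraries.

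The interferon response stood above E13.5 in both kinds of adult culture. Of 22 genes, 16 were higher and none lower, with medians of 2.45 for MS-275 and 2.27 for adult control, and against adult control 3 rose and 3 fell. Rsad2, the antiviral gene viperin, rose over adult control by 4.68 on the log2 scale, with 982 and 6725 normalised counts in MS-275 cultures, against 45.4 to 154 in adult control cultures, and E13.5 libraries had 9.54 to 26.

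MHC genes had a median of 1.22 against -1.67 for adult control, with 8 of 16 called higher than in E13.5 libraries and none lower, and 8 raised and 1 lowered against adult control. H2-Ab1 and H2-Aa, class II genes that present antigen on immune cells and on stimulated endothelium, lay past E13.5. H2-Ab1 had 131 and 251 normalised counts in MS-275 cultures, 0 in adult control cultures and 5.73 to 12.7 in E13.5 libraries, 4.25 ± 0.44 above E13.5 (adjusted p = 7.1e-05) and at least 201-fold above adult control. H2-Aa followed, at least 54.8-fold above adult control and 3.08 above E13.5 on the log2 scale. H2 genes resemble one another, so reads may be split between copies. Of 16 microglia and macrophage genes 9 were lower and 1 higher than in E13.5 libraries, while their summed normalised count was 8707 and 3410 in MS-275 cultures, 7751 to 15178 in adult control cultures and 1560 to 2596 in E13.5 libraries. The 1 higher was Cd68, a lysosomal protein, which made up most of the sum in the adult cultures with 8335 and 3228 in MS-275 cultures, 7456 to 14834 in adult control cultures and 337 to 1307 in E13.5 libraries, a call lost without MS-275 library 1 (adjusted p = 0.076). Csf1r, a receptor of macrophages, had 119 and 124 in MS-275 cultures, 108 to 219 in adult control cultures and 261 to 335 in E13.5 libraries, and Ptprc, which encodes CD45, had 15.4 and 2.19 in MS-275 cultures, 0 to 1.97 in adult control cultures and 15.9 to 33.8 in E13.5 libraries. The α-globin genes Hba-a1 and Hba-a2, near-identical copies whose reads cannot be assigned with certainty, had 238 to 252 in MS-275 cultures, 0 in adult control cultures and at most 4.77 in E13.5 libraries. Alas2, the first enzyme of heme synthesis in red cells, had 5.97 and 7.65 in MS-275 cultures, 12.1 to 17.3 in adult control cultures and 3.18 to 11.5 in E13.5 libraries.

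Over all genes 21.4% were higher and 31.9% lower than in E13.5 libraries, and 49.3% had a mean and 18.2% an interval within 2-fold. Among housekeeping programmes, of 28 ribosomal protein genes, 24 had a mean and 16 an interval within 2-fold, and 7 were lower. Of 30 oxidative phosphorylation genes, 27 had a mean and 14 an interval within 2-fold, with 7 higher and 10 lower, or 4 and 6 without MS-275 library 2 or E13.5 library 2; 5 were lower without E13.5 library 1 and 4 higher without E13.5 library 3. The shares of oxidative phosphorylation genes called higher and lower were near those of all genes. The share of ribosomal protein genes called lower did not exceed that of all genes. Cholesterol synthesis had 19 of 23 means but no interval within 2-fold, and its MS-275 libraries differed widely. Lysosomal genes were higher in 12 of 28 cases and lower in 3. Ctsl, the protease cathepsin L, had 79529 and 60880 in MS-275 cultures, 19572 to 34060 in adult control cultures and 6892 to 10238 in E13.5 libraries (log2 difference 3.13 ± 0.35). Fth1, the ferritin heavy chain that stores iron, had 828160 and 330670 in MS-275 cultures, 83997 to 110390 in adult control cultures and 108080 to 112730 in E13.5 libraries, 2.24 ± 0.53 above E13.5 (adjusted p = 0.0071, or 0.057 without MS-275 library 1). Ndrg1, a hypoxia-induced gene, had 17178 and 10747 in MS-275 cultures, 1276 to 3466 in adult control cultures and 506 to 688 in E13.5 libraries. Aldoc, the brain form of aldolase, had no read in MS-275 cultures and 2260 to 2448 in E13.5 libraries, at least 1624-fold higher.

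Among signalling and matrix groups, angiogenesis genes were lower in 19 of 38 cases and higher in 7, guidance genes lower in 20 of 32 and higher in 4, bone morphogenetic protein (BMP) genes lower in 16 of 23 and higher in 1, and collagen and basement membrane genes lower in 10 of 26 and higher in 1. Over all genes 31.9% were lower, and the collagen share was near that. Without MS-275 library 2, 12 angiogenesis genes and 9 BMP genes were lower, and without MS-275 library 1, 1 guidance gene was higher. Vegfa, the main vessel growth factor and a product of neural tissue, had 506 and 391 normalised counts in MS-275 cultures, 331 to 587 in adult control cultures and 3026 to 6264 in E13.5 libraries (log2 difference -3.44 ± 0.48, adjusted p = 0.00041). Angpt2, which loosens vessels, moved farther from E13.5: it fell to 56.3 and 40.4 in MS-275 cultures, against 285 to 730 in adult control cultures, and E13.5 libraries had 2152 to 2557. Pdgfb, by which ECs recruit pericytes, was level between adult control cultures at 821 to 1076 and E13.5 libraries at 829 to 876 but stood at 94.7 and 43.7 in MS-275 cultures. Bmpr1a, a BMP receptor, had 18.8 and 0 in MS-275 cultures, 0 to 3.94 in adult control cultures and 7430 to 9632 in E13.5 libraries. Fst, an activin antagonist, went under E13.5 with 289 and 113 in MS-275 cultures, 7967 to 12905 in adult control cultures and 456 to 512 in E13.5 libraries (adjusted p = 0.0097, or 0.06 without MS-275 library 2). Col4a1, the basement membrane collagen, came level with E13.5 at 8811 and 9588 in MS-275 cultures, 45901 to 52885 in adult control cultures and 6918 to 17218 in E13.5 libraries, and its interval from -1.03 to 0.95 slightly exceeded 2-fold. Plxnd1, a semaphorin receptor of ECs, lay part way at 6071 and 9571 in MS-275 cultures, 22927 to 34295 in adult control cultures and 2039 to 2218 in E13.5 libraries. Unc5c, a netrin receptor, had no read in MS-275 or adult control cultures, and E13.5 libraries were at least 782-fold above MS-275 cultures.

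**Figure D3:**
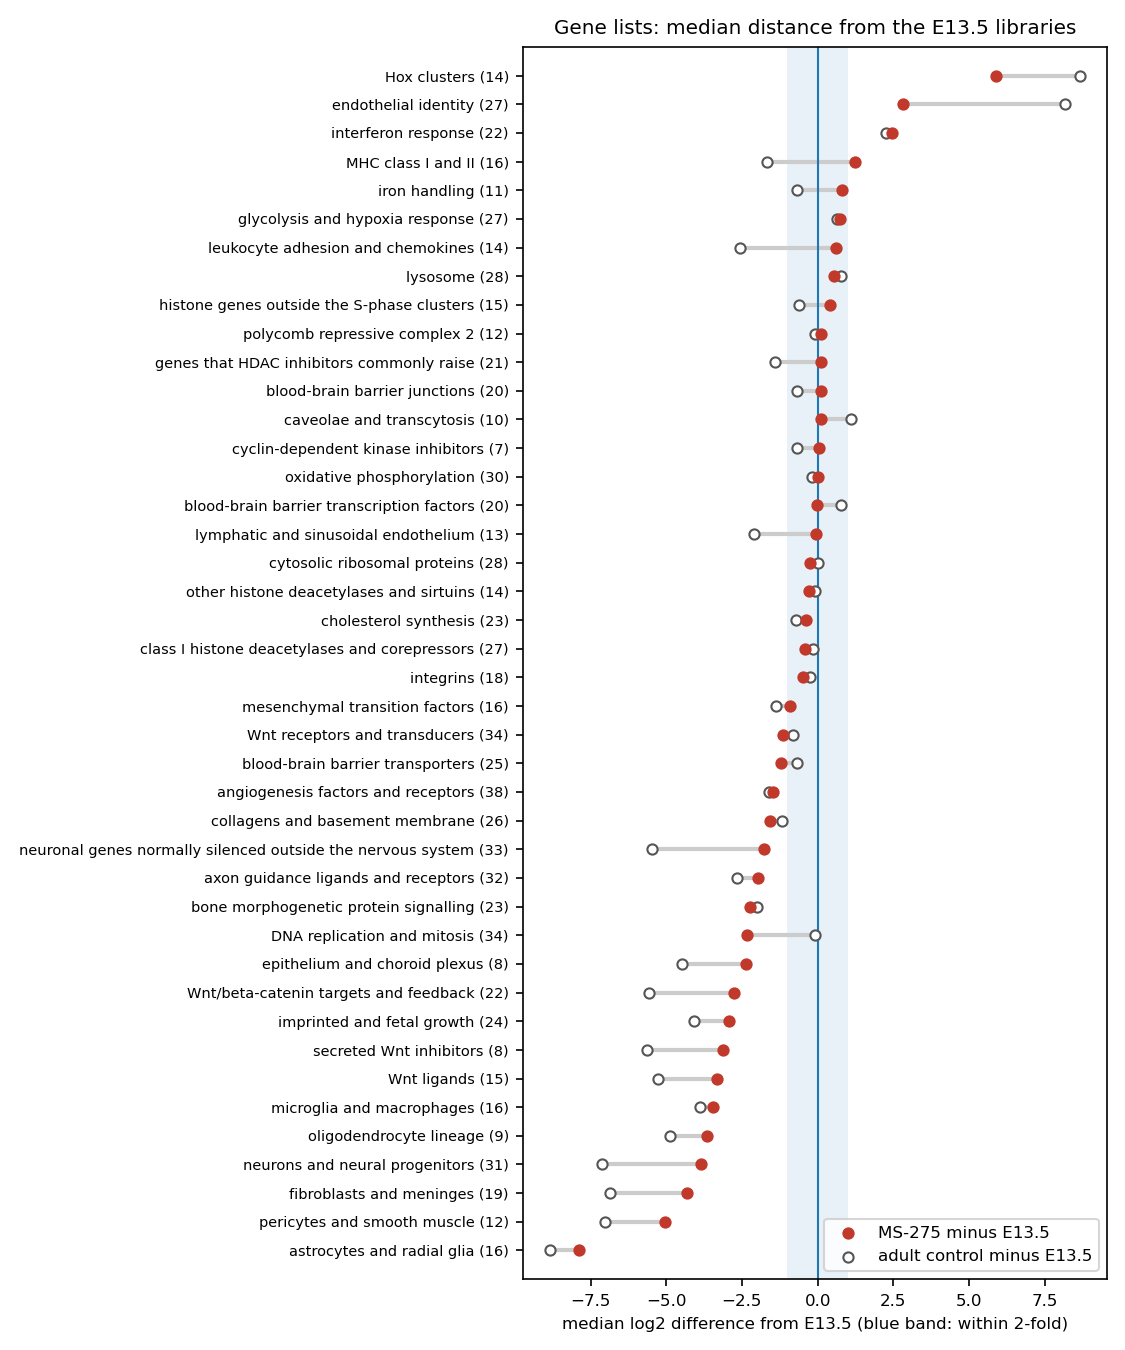
Median log2 difference from E13.5 (x axis) of 42 gene groups, with the number of genes in brackets, for MS-275 cultures (filled points) and adult control cultures (open points); genes at 0 reads are set to the level of 3 reads, and the band marks 2-fold. MS-275 points lie at -7.88 for glial genes and 2.81 for endothelial genes, and at -2.34 for DNA replication genes where adult control is -0.09.

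To ask which genes reached embryonic levels, the genes that set adult control cultures apart from E13.5 were followed into the MS-275 cultures. In that starting comparison 7339 genes were called (49.3%), or 8069 without adult control library 3 and 6798 without E13.5 library 1, and 3920 (26.3%) were called with at least a 4-fold difference, 820 higher and 3100 lower in adult control cultures. The MS-275 and adult control differences share the E13.5 libraries, so the values are given side by side. With MS-275, 541 of the 3920 genes (13.8%) had a mean within 2-fold of E13.5, 166 of them among the 820 and 375 among the 3100. A further 170 (4.3%) lay past E13.5, 1560 (39.8%) lay part way, 1451 (37.0%) stayed near the adult control level and 198 (5.1%) lay farther away. Under Wnt3a, 45 genes (1.1%) were within 2-fold of E13.5, 1 was past it, 583 (14.9%) lay part way and 3092 (78.9%) stayed near adult control. After MS-275, 2838 of the 3920 were still called in the same direction, 576 higher and 2262 lower. The 541 became 517 without E13.5 library 1 and 622 without adult control library 3.

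**Figure D4:**
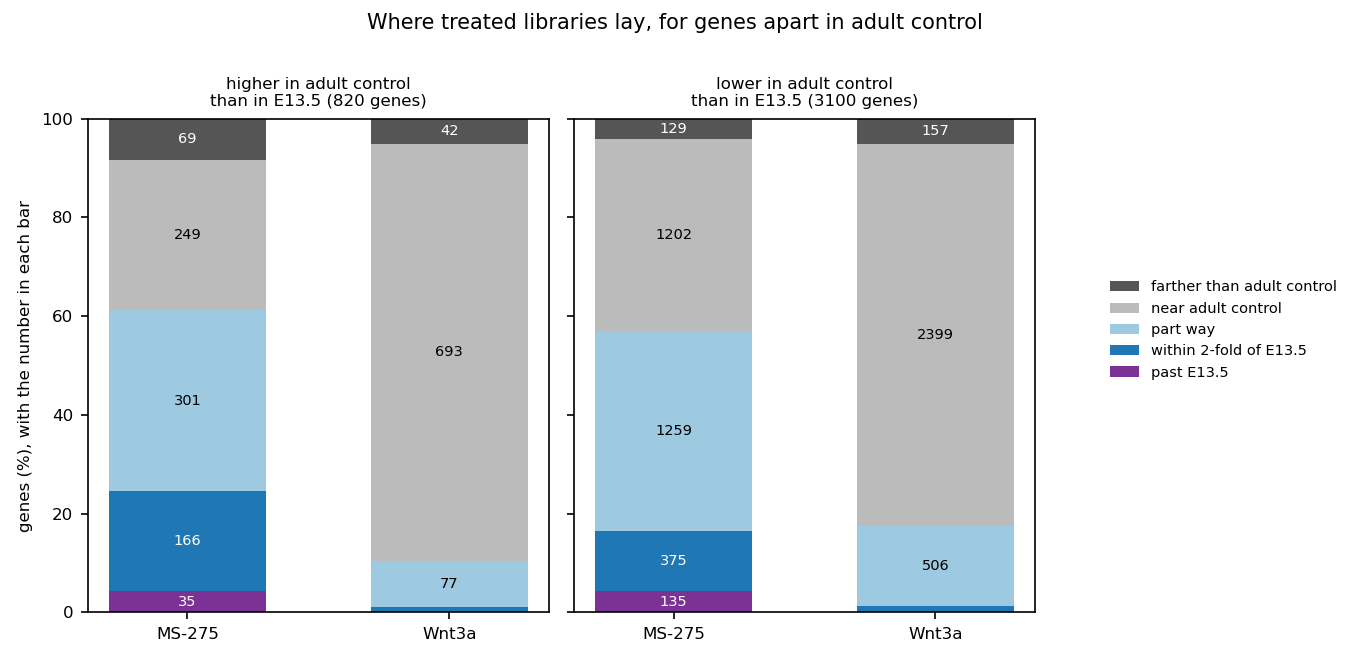
Genes that differ at least 4-fold between adult control and E13.5 (820 higher and 3100 lower in adult control), by where their mean lies in MS-275 and in Wnt3a cultures; the y axis is the percentage of genes and the numbers in the bars are genes. Within 2-fold of E13.5 lie 166 and 375 genes with MS-275, against 8 and 37 with Wnt3a.

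The 541 genes are mostly placed by their means. Both MS-275 libraries were within 2-fold of E13.5 for 310 of them, 1 library for 204 and neither for 27, and the ranges of the groups overlapped for 396. A total of 484 were called against adult control, where 39.6% of all genes were, and 307 had an E13.5 mean of at least 100. The way the 541 were chosen placed each more than 2-fold from adult control and favoured overlap with E13.5. The counts of calls and of overlaps therefore only describe these genes. Only 22 had a 95% interval within 2-fold, and 19 of these had an MS-275 mean of at least 100.

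Among these 19, 12 came down to E13.5 and 7 came up to it. Sema6b, a semaphorin, came down to 102 and 103 normalised counts in MS-275 cultures, against 1003 to 1982 in adult control cultures, and E13.5 libraries had 81.8 to 85.9; both MS-275 libraries still lay above all E13.5 libraries. Neo1, a receptor of guidance and BMP signals, had 5832 and 4700 in MS-275 cultures, 21891 to 24990 in adult control cultures and 4543 to 4892 in E13.5 libraries, with an interval from -0.20 to 0.50. Gusb, the lysosomal β-glucuronidase, had 1006 and 703 in MS-275 cultures, 3672 to 5343 in adult control cultures and 780 to 1158 in E13.5 libraries. Nr2f2, the factor COUP-TFII of venous identity, had 650 and 804 in MS-275 cultures, 3468 to 4190 in adult control cultures and 499 to 1416 in E13.5 libraries. Ptpn12, a phosphatase of cell migration, had 2590 and 3855 in MS-275 cultures, 10329 to 12565 in adult control cultures and 2515 to 2650 in E13.5 libraries. Coming up, Cx3cl1, the chemokine fractalkine, had 969 and 586 in MS-275 cultures, 73.2 to 138 in adult control cultures and 593 to 1073 in E13.5 libraries, with an interval from -0.88 to 0.98. Wasf1, an actin regulator of neurons, had 528 and 981 in MS-275 cultures, 83.8 to 150 in adult control cultures and 510 to 907 in E13.5 libraries. Clcn2, a chloride channel, had 393 and 427 in MS-275 cultures, 78.9 to 96.6 in adult control cultures and 351 to 401 in E13.5 libraries. Pkp4, a catenin of junctions, had 2721 and 2505 in MS-275 cultures, 311 to 402 in adult control cultures and 1832 to 2010 in E13.5 libraries, and lay above E13.5 in both libraries.

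**Figure D5:**
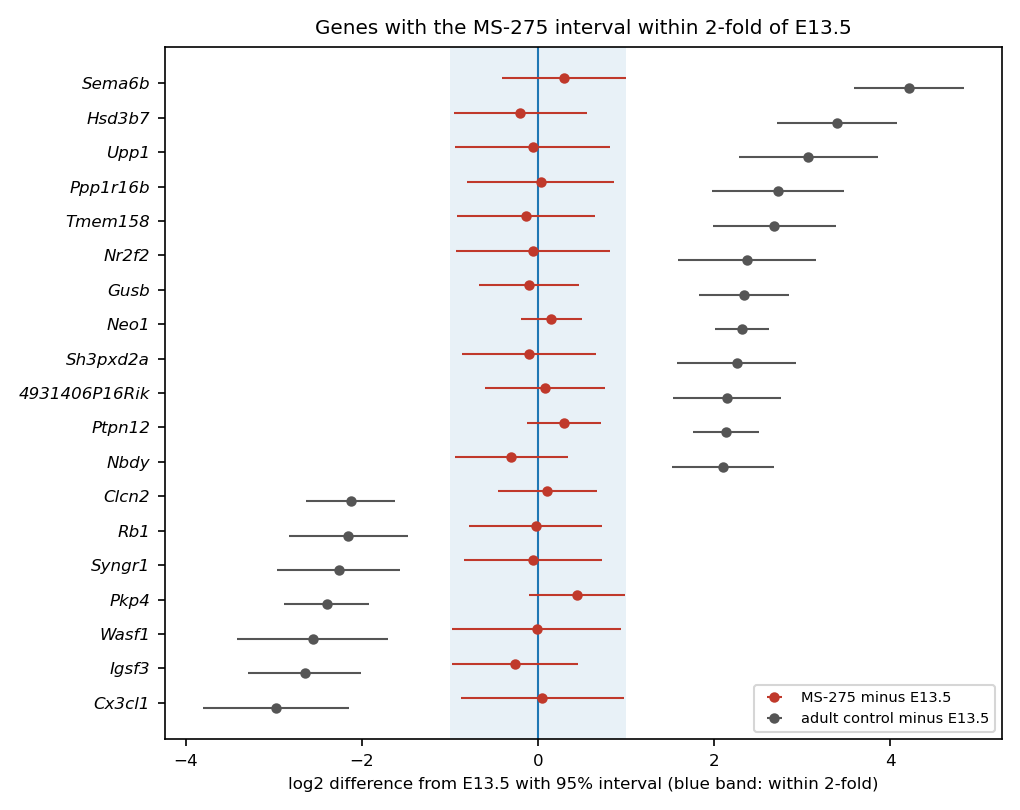
Log2 difference from E13.5 with its 95% interval (x axis) for the 19 genes that differ at least 4-fold in adult control and have an interval within 2-fold with MS-275; red marks MS-275 (2 libraries) and grey adult control (3 libraries). Neo1 spans -0.20 to 0.50 and Rb1 spans -0.79 to 0.73, inside the band of 2-fold.

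Of 33 neuronal genes that are normally silent outside the nervous system, 17 rose and 2 fell against adult control, where 22.3% and 17.2% of all genes did. Members at or near 0 in adult control cultures could hardly fall, so the counts of this list only describe its members. The median relative to E13.5 was -1.77 for MS-275 and -5.48 for adult control, and 15 remained lower than E13.5 while 2 were higher. Of the 26 that were at least 4-fold apart in adult control, 7 reached E13.5 (13.8% of all such genes did), 14 lay part way, 4 stayed near adult control and 1 lay farther. Vgf, a secreted neuropeptide precursor, had 1826 and 5635 normalised counts in MS-275 cultures, 4.07 to 19.7 in adult control cultures and 2556 to 4865 in E13.5 libraries. It rose by 8.32 over adult control (adjusted p = 0.00011), and its interval against E13.5 ran from -1.82 to 1.24. Stmn4, a microtubule regulator, rose at least 177-fold to 206 and 131 in MS-275 cultures, against 0 in adult control cultures, and E13.5 libraries had 107 to 375. Snap25, of the vesicle fusion machinery, had 112 and 198 in MS-275 cultures, 0 to 1.97 in adult control cultures and 218 to 283 in E13.5 libraries. Celf5, an RNA-binding protein of neurons, had 325 and 467 in MS-275 cultures, 1.73 to 19.7 in adult control cultures and 386 to 428 in E13.5 libraries. Gria2, a glutamate receptor subunit, did not follow, with 1.71 and 0 in MS-275 cultures, 0 to 2.03 in adult control cultures and 3881 to 5412 in E13.5 libraries.

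By another count, 208 of the 14895 genes passed E13.5. Unlike the 170 above, which were taken from the 3920, this count set no 4-fold limit between adult control and E13.5. It required calls on opposite sides of E13.5 in MS-275 and adult control cultures and a mean of at least 100 in 1 group. It also required at least a 2-fold difference between MS-275 and E13.5. Onecut2, a homeobox factor of neurons and liver, had 438 and 818 normalised counts in MS-275 cultures, 0, 0 and 1.97 in adult control cultures and 35 to 80.2 in E13.5 libraries, 3.50 ± 0.72 above E13.5 (adjusted p = 0.0033). Areg, an epidermal growth factor receptor ligand, had 618 and 1796 in MS-275 cultures, 2.03 to 6.94 in adult control cultures and 123 to 268 in E13.5 libraries, a call lost without MS-275 library 2 (adjusted p = 0.19) and without E13.5 library 2 (0.074) or 3 (0.071). Cacna1g, a T-type calcium channel, had 232 and 220 in MS-275 cultures, 0 in adult control cultures and 69.4 to 84.2 in E13.5 libraries. Lamb3, a laminin chain of epithelia, had 1151 and 599 in MS-275 cultures, 0, 0 and 0.986 in adult control cultures and 1.73 to 11.1 in E13.5 libraries.

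Last, 8471 genes had an adult control mean within 2-fold of E13.5, and 690 of these were apart from E13.5 with MS-275 by at least 4-fold and called, 292 higher and 398 lower. Gdf11, a ligand of the transforming growth factor β family, had 12397 and 17378 normalised counts in MS-275 cultures, 684 to 1285 in adult control cultures and 587 to 786 in E13.5 libraries (log2 difference from E13.5 4.46 ± 0.28, adjusted p = 4.5e-06). Nos1, the neuronal nitric oxide synthase, had 1295 and 6176 in MS-275 cultures, 4.07, 12.1 and 266 in adult control cultures and 7.63 to 27 in E13.5 libraries (adjusted p = 0.0066, or 0.067 without MS-275 library 2). Mmp14, a membrane protease of matrix turnover, fell to 44.4 and 5.46 in MS-275 cultures, against 743 to 2511 in adult control cultures, and E13.5 libraries had 2235 to 3964. Tnc, the matrix protein tenascin C, had 440 and 127 in MS-275 cultures, 2460 to 8649 in adult control cultures and 5694 to 12927 in E13.5 libraries.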

How the data were processed

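Messenger RNA of the 10 libraries was prepared with a KAPA mRNA HyperPrep kit. The authors deposited 1 table of normalised counts per gene, a signal scaled between libraries by size factors; the submitters' processing notes name FastQC, cutadapt, STAR, featureCounts, DESeq2 and the mm10 build, and the versions and strand setting are not given in the sources used here. All values (100%) came back as whole reads within 0.01, which gave the depth of each library. Before analysis 26 lines whose gene names had become dates were dropped (0.21 to 0.281% of the signal), and 99.2% of the remaining symbols stood in the annotation.

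Differences were fitted with limma 3.58.1 (R 4.3.3) with a mean-variance trend on log2(value + 1) over all 10 libraries in 4 groups, since the values are not counts, with Benjamini-Hochberg adjustment over the 14895 genes. This scale understates the change of low genes. The fold against a group without reads is a lower bound, taken against 3 reads over that group. Genes that set adult control apart were called there with an absolute log2 difference of at least 2. The test was checked on simulated data. On the recovered reads edgeR 4.0.16 called 7553 genes and DESeq2 1.42.0 called 8062. Other alternatives were pseudocounts, filters, scalings, the 5 libraries alone, a replicate block and leaving out each library.

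The 43 gene lists, the members and the tests were chosen with earlier results of these data known. Genes were named from 28 genes of the study; from each list, up to 5 with the smallest p against E13.5 and up to 5 within 2-fold of E13.5 with the largest adult distance; from the 10 largest called rises and 10 largest falls with a mean of at least 100 and no overlap; from the 15 genes a direction that were farthest apart in adult control and had an interval within 2-fold; and from the 10 farthest past E13.5. The text takes some of these, and Bmpr1a, Ccnd1, Cd68, Cgn, Col1a1, Csf1r, Dcx, Fst, Fth1, Gdf11, Hoxb8, Hoxb9, Igf2, Igf2bp1, Lrp6, Mest, Mmp14, Nefl, Nos1, Notch3, Pcna, Pdgfb, Plk1, Plxnd1, Ptprc, Reck, Rnf43, Slc1a2, Slc38a3, Stmn2, Tcf7, Tnc and Vwf were chosen after their values were seen. Some genes are not reported here.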

Additional observations from a re-analysis of the deposited data

How the results depend on the processing

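The number of genes called between MS-275 and E13.5 was 7936 and stayed between 6429 and 8572 over the other pseudocounts, filters, scalings, tests and fold limits, and between 6101 and 7210 with 1 library left out. The called total moved little, but the split between higher and lower turned under quantile normalisation, which gave 56.1% higher against 40.2%. The number of genes with an interval within 2-fold was 2717, with 1871 to 2252 when 1 library was left out; it was 512 for a limit of 1.5-fold and 5997 for 3-fold. Between MS-275 and adult control 5891 genes were called, and leaving out 1 library gave 3615 (without MS-275 library 2) to 6840. Between adult control and E13.5 7339 were called, with 5796 to 8069 when 1 library was left out. The 541 genes that reached E13.5 became 322 and 898 with limits of 1.5-fold and 3-fold, 1354 and 293 when a log2 distance of 1 or 3 set the genes apart, and 489 to 622 with 1 library left out. The 17 gene groups called mostly in 1 direction were 14 to 22 under the other settings and 13 to 19 with 1 library left out. The median of the endothelial genes was 4.74 under quantile normalisation, that of the Wnt ligands -1.98, that of the silenced neuronal genes -0.74, that of the interferon response 3.70 and that of the MHC genes 1.88. The cause of these moves was not tested. With 1 MS-275 library left, its spread is assumed to equal that of the other groups. With the replicate number of the labels as a block, 7680 genes were called between MS-275 and E13.5, 5930 between MS-275 and adult control and 7365 between adult control and E13.5. Under the block the calls of S1pr1 (adjusted p = 0.06), Slc2a1 (0.067) and Rnf43 (0.078) against E13.5 were lost. No label pairs the libraries, and deviations of same-numbered MS-275 and E13.5 libraries correlated at 0.14 and 0.12. Those of MS-275 library 2 and E13.5 library 3 correlated at 0.11. Deviations of the 2 MS-275 libraries from their own mean mirror each other, so these values are not separate checks and cannot decide whether libraries are paired. The block also parts adult control library 3 from Wnt3a library 2, which correlated at 0.993, so it cannot stand for any set those libraries share.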

Other observations

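Cholesterol synthesis genes varied between libraries more than between groups. Their summed normalised count over 23 genes was 124990 and 38504 in the MS-275 libraries, 115110 and 17094 in the Wnt3a libraries, 75615, 78690 and 15314 in the adult control libraries, and 81879 to 93694 in the E13.5 libraries. Insig1, a sterol-regulated gene of this group, had 22818 and 1071 in MS-275 cultures, 9197 and 1209 in Wnt3a cultures, 6957, 7330 and 1101 in adult control cultures, and 4743 to 5083 in E13.5 libraries. It was low in MS-275 library 2, Wnt3a library 2 and adult control library 3, and these values were chosen after they were seen.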
